A study of Mus musculus with 3 samples.

Results

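The genes described here encode the protein parts of lipoproteins and the protein that loads them with lipid: Apoa1, Apoa2, Apoa4, Apob, Apoc2, Apoe, Apom and Mttp. They were taken as a family by name, with earlier results of these data known. Their probes were found on the arrays by the accession that the scanner tables give for each probe. Of the 8 genes, 6 were matched to a probe, among 13184 genes measured above background on at least 1 array. Apob and Apoc2 had no matched probe and were not analysed here.

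Transcript levels were measured on 3 one-colour Agilent arrays, each hybridised with Cy3-labelled RNA from a pool of 3 whole mouse embryos of mixed background. The study addressed the small Maf proteins MafF, MafG and MafK, basic leucine zipper factors that pair with CNC and BACH family proteins on DNA. The first group lacked all of them at E10.5 (MafF-/-:MafG-/-:MafK-/-, here triple null). The other two groups also lacked MafF and MafK but kept both copies of MafG (MafF-/-:MafG+/+:MafK-/-, here MafG-intact), at E10.5 and at E9.5. MafF and MafK were thus absent from every pool, and no pool had all of the small Maf genes intact. Each group was 1 array, so the spread between embryos is unknown, no comparison carries an error or a test, and every "higher" or "lower" is a statement about single pools.

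Lipoproteins carry lipid through fluids that do not dissolve it. ApoB is the scaffold of the large particles, which the microsomal triglyceride transfer protein (Mttp) fills with lipid as they are made. ApoA-I and ApoA-II are the main proteins of high-density lipoprotein, and the smaller exchangeable proteins move between particles and guide their uptake. In the early mouse embryo these genes are known to be used by the visceral endoderm of the yolk sac, which makes lipoproteins for the embryo before the liver does, and then by the hepatoblasts of the liver bud.

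The promoters of the members whose levels differed most are shown first, with that of Apoe, whose level differed least. Each is the 250 bases before the RefSeq start site on build GRCm38.p6, written 5′ to 3′ on the strand of the gene. Apoa1 lies at chr9:46228380-46228629 (plus strand) and Apoa4 at chr9:46240594-46240843 (plus), in a cluster with the gene order Sik3, Apoa1, Apoc3, Apoa4, Apoa5, Zpr1. Apoa2 lies at chr1:171224804-171225053 (plus, 1 of its 2 listed starts), Apom at chr17:35131802-35132051 (minus) and Apoe at chr7:19699189-19699438 (minus, 1 of its 3 listed starts). Capitals mark the matches to the motifs named after the sequences.

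Apoa1: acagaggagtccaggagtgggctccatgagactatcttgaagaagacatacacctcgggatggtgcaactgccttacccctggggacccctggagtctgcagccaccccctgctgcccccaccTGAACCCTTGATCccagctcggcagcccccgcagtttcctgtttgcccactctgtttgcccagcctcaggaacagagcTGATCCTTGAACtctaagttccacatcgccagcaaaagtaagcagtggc
Apoa4: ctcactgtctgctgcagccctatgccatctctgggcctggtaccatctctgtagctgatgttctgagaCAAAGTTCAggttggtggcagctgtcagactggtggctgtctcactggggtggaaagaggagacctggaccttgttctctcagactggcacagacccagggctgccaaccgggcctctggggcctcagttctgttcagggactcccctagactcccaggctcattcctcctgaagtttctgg
Apoa2: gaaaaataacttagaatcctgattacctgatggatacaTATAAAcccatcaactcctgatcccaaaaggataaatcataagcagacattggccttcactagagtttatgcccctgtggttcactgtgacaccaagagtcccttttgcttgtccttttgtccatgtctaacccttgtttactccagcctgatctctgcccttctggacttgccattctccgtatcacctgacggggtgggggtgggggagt
Apom: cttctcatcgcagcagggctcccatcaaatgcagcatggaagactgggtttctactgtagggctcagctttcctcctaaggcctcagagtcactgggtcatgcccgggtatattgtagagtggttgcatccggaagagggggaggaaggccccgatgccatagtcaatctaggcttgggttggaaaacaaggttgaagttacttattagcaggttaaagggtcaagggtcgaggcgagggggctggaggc
Apoe: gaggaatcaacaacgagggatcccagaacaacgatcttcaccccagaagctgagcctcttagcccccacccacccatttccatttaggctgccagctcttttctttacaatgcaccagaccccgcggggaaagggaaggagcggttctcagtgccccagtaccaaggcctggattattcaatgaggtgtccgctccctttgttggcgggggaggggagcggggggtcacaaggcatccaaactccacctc

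All 8 members had promoters in the RefSeq table, with 11 windows between them. Motifs were searched on both strands, and the letters of the direct repeats were chosen after the promoters had been read. The core of the element that small Maf heterodimers bind, TGACNNNGC, was in 0 of the 11 windows, and 10.2% of all 32851 promoter windows held it. The Apoa1 window held both direct repeats of the nuclear receptor half-site that were searched, on the minus strand. The repeat of GNTCA with 2 letters between its copies (1.01% of all windows) began 49 bases before the start site, and the one with 3 letters between (0.889%) began 127 bases before it. The HNF4 motif CAAAGTNCA (1.19% of all windows) was in the Apoa4 window alone, 182 bases before the start. The HNF1 palindrome, GTTAAT and ATTAAC with 1 letter between, was in 0 of the 11 (0.00913% of all). TATAAA was in 3 of the 11 (12.4% of all), those of Apoa2, Apob and another start of Apoe. The windows of Apom and of Apoe shown here held none of these letters. A match is a description of the letters, not a binding site.

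Levels are given as log2 of the background-subtracted signal over the 75th percentile of its array, so a level of 0 lies at that percentile and differences are in log2. Levels are compared between arrays for 1 gene and not between genes, since probes differ in brightness at equal amounts of RNA. A gene was counted as different when both arrays read it well above background and its levels were 2-fold or more apart, the threshold used throughout.

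Mafg was read first, as a check of the labels. It was not well above background in the triple null pool, at -7.74, against 0.48 at E10.5 and 1.03 at E9.5 in the MafG-intact pools, at least 173-fold and at least 253-fold lower. Xist was above background only in the MafG-intact E10.5 pool, and the Y-linked Ddx3y, Eif2s3y, Kdm5d and Uty only in the other pools. The pools thus differed in sex in both comparisons that use the MafG-intact E10.5 array. Sex cannot be told apart from genotype between the E10.5 pools, nor from stage between the MafG-intact pools. The triple null and E9.5 pools differed in both genotype and stage, which cannot be told apart there. Between 69.1% and 70.4% of probes were well above background. In RNA of whole embryos, fewer cells of a type and less RNA per cell cannot be told apart.

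The triple null pool held less Apoa1, Apoa2 and Apom transcript than either MafG-intact pool, while Apoe and Mttp differed by less than 1.5-fold between any 2 arrays. Apoa4 was above background only in the E9.5 pool. In the triple null pool at E10.5 against the MafG-intact pool of the same stage, 2 of the 5 members that both arrays detected lay 2-fold or more below and 0 above. Over all 12529 genes 5.45% were at least 2-fold apart, 4.47% lower and 0.982% higher, and 7.68% of the genes under the median level were lower. Against the E9.5 pool 3 of 5 were at least 2-fold lower, where 0.783% of 12521 genes were apart, 0.527% lower and 0.256% higher, and 1.01% of those under the median level were lower. Between the MafG-intact pools 1 of 5 was at least 2-fold lower at E10.5, where 5.19% of 12514 genes were apart, 1.07% lower and 4.12% higher, and 1.92% of those under the median level were lower.

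The 3 comparisons share arrays, each array entering 2 of them, so their values are not independent. A gene low on the triple null array alone is low in both comparisons that use it. Since the members were chosen with earlier results of these data known, their counts beside the all-gene shares are descriptions only. Of the 5 members measured on all arrays, Apoa1 and Apoa2 (2 of 5) were below both MafG-intact pools by 2-fold or more in the triple null pool, as were 23 of 12429 genes, or 0.185%. With normexp, a background correction that adds 50 units to each signal, 0 of 5 members and 5 of 12429 genes were. At 1.5-fold Apom joined them, 3 of 5 against 0.797% of genes, and the same 3 were lower at any size, against 24.4% of genes.

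**Figure D1:**
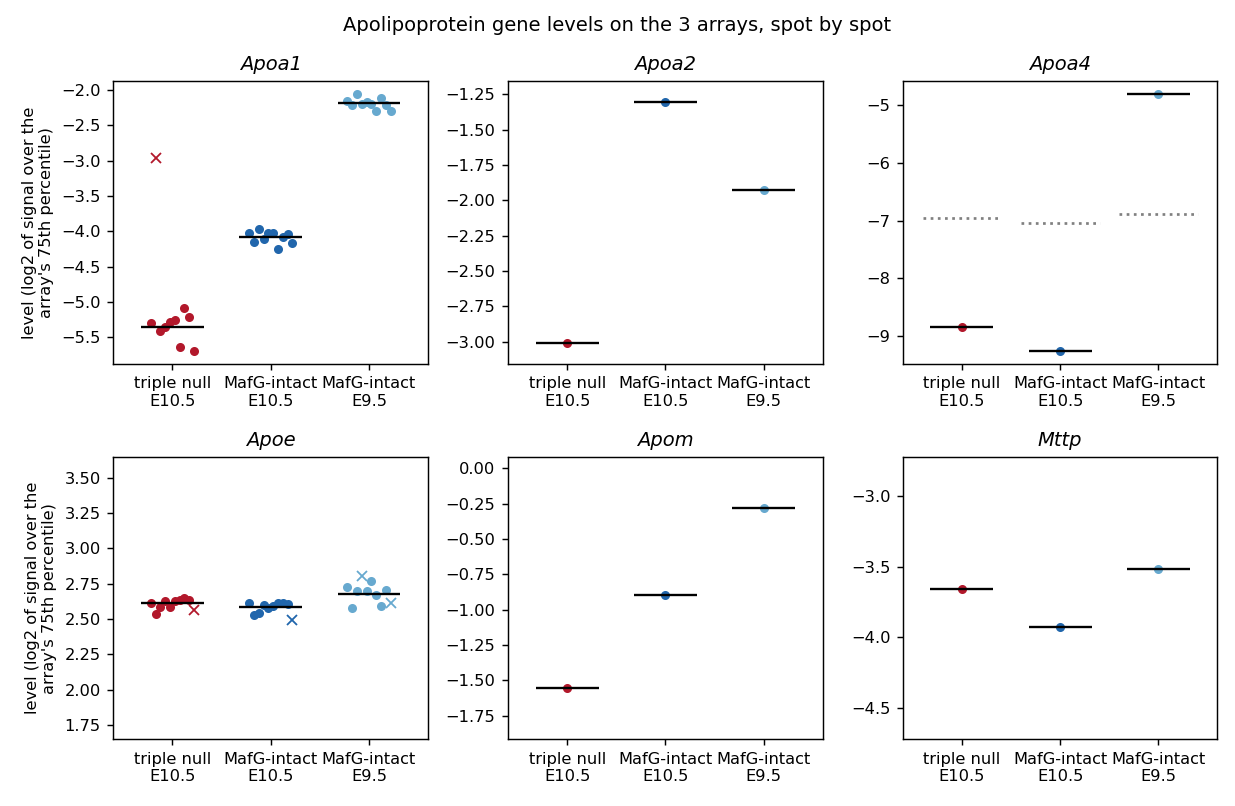
Levels of the 6 measured members on the 3 arrays, as log2 of signal over the array's 75th percentile. Points are single spots, crosses are spots the scanner software marked as outliers and left out of the level, black lines are the levels, and dotted lines in the Apoa4 panel are the lowest level of a probe well above background. Each panel has its own range. The Apoa1 spots form 3 separate bands, Apoe stays between 2.59 and 2.68, and Apoa4 lies under the dotted line on both E10.5 arrays.

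Apoa1 encodes the main protein of high-density lipoprotein and the activator of the enzyme LCAT. Its probe was printed 10 times on each array, which gives it the technical error of its spots. The level was -5.36 in the triple null pool (SD 0.20 over 9 spots, from -5.69 to -5.09). It was -4.08 in the MafG-intact E10.5 pool (SD 0.09 over 10 spots, from -4.25 to -3.96). It was -2.19 in the MafG-intact E9.5 pool (SD 0.08 over 10 spots, from -2.30 to -2.05). The bands of spots did not overlap, with the triple null pool lowest and the younger pool highest. One triple null spot, at -2.96, was marked as an outlier by the scanner software and left out; with it the level was -5.12.

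Against its stage match the triple null pool held 2.42-fold less Apoa1 (-1.28), the MafG-intact E10.5 pool held 3.71-fold less than the E9.5 pool (-1.89), and the triple null pool held 8.98-fold less than the E9.5 pool (-3.17). Counted from the lowest difference of all genes, these were places 374 of 12529, 29 of 12514 and 3 of 12521. The mean intensities were 26.5, 84.1 and 233 in the order triple null, MafG-intact E10.5 and E9.5. The first is dim, and normexp left the first difference at -0.35, or 1.28-fold, under the threshold. Both differences from E9.5 stayed past 2-fold under every way of processing the signal that was run, and were 2.70-fold and 3.46-fold with normexp.

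Apoa2 encodes the other structural protein of high-density lipoprotein. Its single spot read -3.01 in the triple null pool, -1.30 in the MafG-intact E10.5 pool and -1.92 in the E9.5 pool. The triple null pool was lowest, and the order of the MafG-intact pools was the reverse of that of Apoa1, with the older pool higher. In the triple null pool it was 3.27-fold below its stage match (-1.71), place 197 from the lowest, and 2.12-fold below E9.5 (-1.09), place 54. It was 1.54-fold higher at E10.5 than at E9.5 (0.62), which did not reach the threshold. With normexp the difference from E9.5 was 1.82-fold (-0.86), under the threshold.

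Apoa4 encodes a protein of intestinal and hepatic lipoproteins and lies near Apoa1, with Apoc3 between them. Its single spot was well above background in the E9.5 pool alone, at -4.80, with an intensity of 38.2 and a scanner error of 11.2%. In the triple null and MafG-intact E10.5 pools the measured values of -8.84 and -9.26 were not well above background, with scanner errors of 79.7% and 99.9% of the signal, so the E10.5 pools could not be compared with each other. Against E9.5 the MafG-intact E10.5 pool was at least 4.74-fold lower (at least 2.09-fold with normexp), and the triple null pool at least 4.45-fold lower (at least 1.60-fold with normexp). Such a bound takes the dim array at the higher of the gene's own signal and the lowest signal of any probe well above background there. Of the genes above background on 1 array of the pair, 9.97% of 582 and 11.3% of 372 had a bound of at least 2-fold lower.

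Apom encodes a lipocalin carried on high-density lipoprotein, which binds sphingosine-1-phosphate. Its single spot read -1.55 in the triple null pool, -0.90 in the MafG-intact E10.5 pool and -0.28 in the E9.5 pool. The order of the pools was that of Apoa1, with smaller steps. The difference was 1.57-fold between the E10.5 pools (-0.65), 1.53-fold between the MafG-intact pools (-0.61) and 2.41-fold between the triple null and E9.5 pools (-1.27), the last at place 40 from the lowest and the only one past the threshold.

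Apoe encodes the ligand by which remnant particles bind receptors of the LDL receptor family, and many cell types make it. Over its 10 spots the level was 2.61 in the triple null pool (SD 0.04, 9 spots used), 2.59 in the MafG-intact E10.5 pool (SD 0.03, 9 used) and 2.68 in the E9.5 pool (SD 0.07, 8 used). The ranges of its spots, 2.54 to 2.65, 2.53 to 2.62 and 2.57 to 2.77, overlapped on all arrays. The differences were 0.02, -0.09 and -0.07 in the order triple null minus MafG-intact E10.5, MafG-intact E10.5 minus E9.5, and triple null minus E9.5; the first was -0.04 with quantile normalization.

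Mttp encodes the transfer protein that loads ApoB with lipid. Its single spot read -3.66 in the triple null pool, -3.93 in the MafG-intact E10.5 pool and -3.52 in the E9.5 pool. The triple null pool was 1.21-fold above its stage match (0.27), and the MafG-intact E10.5 pool 1.33-fold below E9.5 (-0.41). The triple null and E9.5 pools differed by 1.10-fold (-0.14). Probes printed 10 times at levels from -4 to -2 had a median spot SD of 0.083, 0.067 and 0.073 on the 3 arrays, which is technical error within an array and holds none of the spread between embryos.

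**Figure D2:**
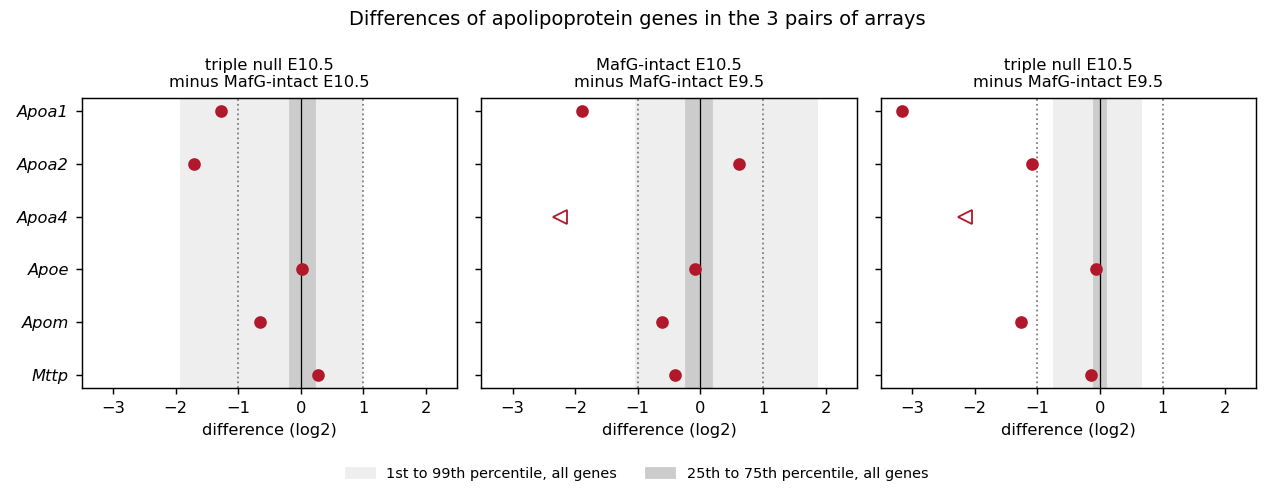
Difference of each member in each pair of arrays, in log2. Filled points are genes above background on both arrays, open triangles are bounds for Apoa4, and no point is drawn where neither array was above background; grey bands cover the middle of all genes, and dotted lines mark 2-fold. Apoa1 lies at -1.28, -1.89 and -3.17, and the band of all genes is narrowest for triple null minus E9.5, from -0.73 to 0.66.

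The median over the 5 members measured on both arrays was -0.65 for triple null minus MafG-intact E10.5, -0.41 for MafG-intact E10.5 minus E9.5 and -1.09 for triple null minus E9.5. Over all genes the medians were 0.06, -0.05 and 0.01. The 1st and 99th percentiles of all genes were -1.91 and 0.98, -1.03 and 1.86, and -0.73 and 0.66, so the triple null array and the E9.5 array differed least. Apoa1 and Apoa2 lay inside the first of these ranges and below the last, as did Apom.

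Genes whose levels across the arrays were most like those of Apoa1, the member with the widest range, were chosen by distance after each gene's mean over the 3 arrays had been subtracted, among 12429 genes above background on all arrays. They were Cyp2a4 (distance 0.62), Spp2 (0.63), Hbq1b (0.68), Susd3 (0.77) and Nop14 (0.79). Each was lowest in the triple null pool and highest at E9.5 by the mean of its probes. Spp2, a secreted phosphoprotein, and Hbq1b, a globin, have 1 probe each, above background on all arrays. The other 3 have 2 probes that disagree. For Cyp2a4, a steroid hydroxylase, 1 probe was above background at E9.5 alone (-4.95) and the other read -6.67, -6.55 and -6.31 in the order triple null, MafG-intact E10.5 and E9.5. For Susd3 1 probe was above background at E9.5 alone (-2.99) and the other read -3.23, -3.06 and -3.24. The probes of Nop14 read 1.96, 1.32 and 1.95, and -6.22, -2.32 and -1.36. Likeness over 3 arrays is a description only.

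Among the other apolipoprotein genes, 6 of 12 were measured, and the triple null pool differed from its stage match by 2-fold or more in 2 of them, 1 in each direction, with a median of 0.06. Apod, a lipocalin of many tissues, was 2.27-fold lower there (-1.18), with levels of -3.60, -2.42 and -3.36 in the order triple null, MafG-intact E10.5 and E9.5. Apoa5, a regulator of triglyceride lipolysis in the same cluster as Apoa1, has 2 probes, and 1 of them was above background on all arrays, at -4.80, -6.79 and -4.79. By that probe the triple null pool was 3.98-fold above its stage match, the opposite direction to Apoa1, the MafG-intact E10.5 pool was below E9.5 by nearly the same amount, and the triple null and E9.5 pools differed by -0.0070. The level of that probe in the MafG-intact E10.5 pool lay near -7.04, the lowest of any probe well above background there. The other probe was above background at E9.5 alone. The list's counts and medians use the mean of both probes (1.87, -2.34 and -0.47). Apoa5 was the only gene of this list past the threshold between the MafG-intact pools. Apoc1, which lies beside Apoe, read -1.32, -0.52 and -0.97 and stayed under the threshold throughout. None of the 6 was past the threshold between the triple null and E9.5 pools (median -0.15), and Apoc3, Apoc4, Apoh and Saa4 were not above background on any array.

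Most genes flanking the members' clusters stayed under the threshold. Of 13 neighbours in the clusters of Apoa1 and Apoe, 1 was at least 2-fold apart between the E10.5 pools, 1 between the MafG-intact pools and 0 between the triple null and E9.5 pools, with medians of 0.20, -0.16 and -0.00. In both pairs it was Bcl3, an inhibitor-like partner of NF-kB near Apoe, at -1.21 and 1.25. Sik3 and Zpr1, on the sides of the Apoa1 cluster, differed by 0.14 and 0.43 between the E10.5 pools, against -1.28 for Apoa1. Fcer1g, the gene next to Apoa2 and an Fc receptor subunit of macrophages, was at -1.22, 1.12 and -0.10 in the 3 comparisons, where Apoa2 was at -1.71, 0.62 and -1.09.

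The rest of the lipoprotein pathway is given by lists of its genes. Of the genes of assembly and secretion, none of the 6 on both arrays was at least 2-fold apart between the E10.5 pools (median 0.16). Apobec1, the enzyme that edits the Apob transcript, was not above background in the triple null pool, where it read -6.67. By that reading it was 4.08-fold below its stage match, which is the measured difference and not a minimum. In the MafG-intact pools Apobec1 was 2.61-fold higher at E10.5 than at E9.5 (1.39). The 11 receptors and uptake genes had a median of 0.07 between the E10.5 pools, and 1 of them passed the threshold between the triple null and E9.5 pools. Amn, the amnionless subunit of the cubilin receptor of the visceral endoderm, was at -3.69, -4.23 and -1.65, which puts the MafG-intact E10.5 pool 5.96-fold and the triple null pool 4.11-fold below E9.5.

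Of the remodelling genes, 1 of 8 passed the threshold between the E10.5 pools and 1 of 8 between the MafG-intact pools. It was Pon1 both times, the paraoxonase carried on high-density lipoprotein, at -4.94 in the triple null pool, -6.11 in the MafG-intact E10.5 pool and -4.91 at E9.5. None of 4 cholesterol efflux genes passed the threshold in any pair; Abca7, a lipid transporter, was farthest at -0.94 between the E10.5 pools. Of 20 transcription factors of apolipoprotein genes measured on both E10.5 arrays, 1 passed the threshold. It was Foxa3, a forkhead factor of endoderm, 1.07 above its stage match in the triple null pool. Hnf4a, the nuclear receptor of endoderm that is known to drive Apoa1, had 1 probe above background on all arrays, at -6.60 in the triple null pool, -5.89 in the MafG-intact E10.5 pool and -6.30 at E9.5, a difference of -0.71 between the E10.5 pools. Another of its probes, at -6.80, -7.03 and -6.53, was not above background in the MafG-intact E10.5 pool and lay the other way there. In the other comparisons 0 of 19 factors passed.

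**Figure D3:**
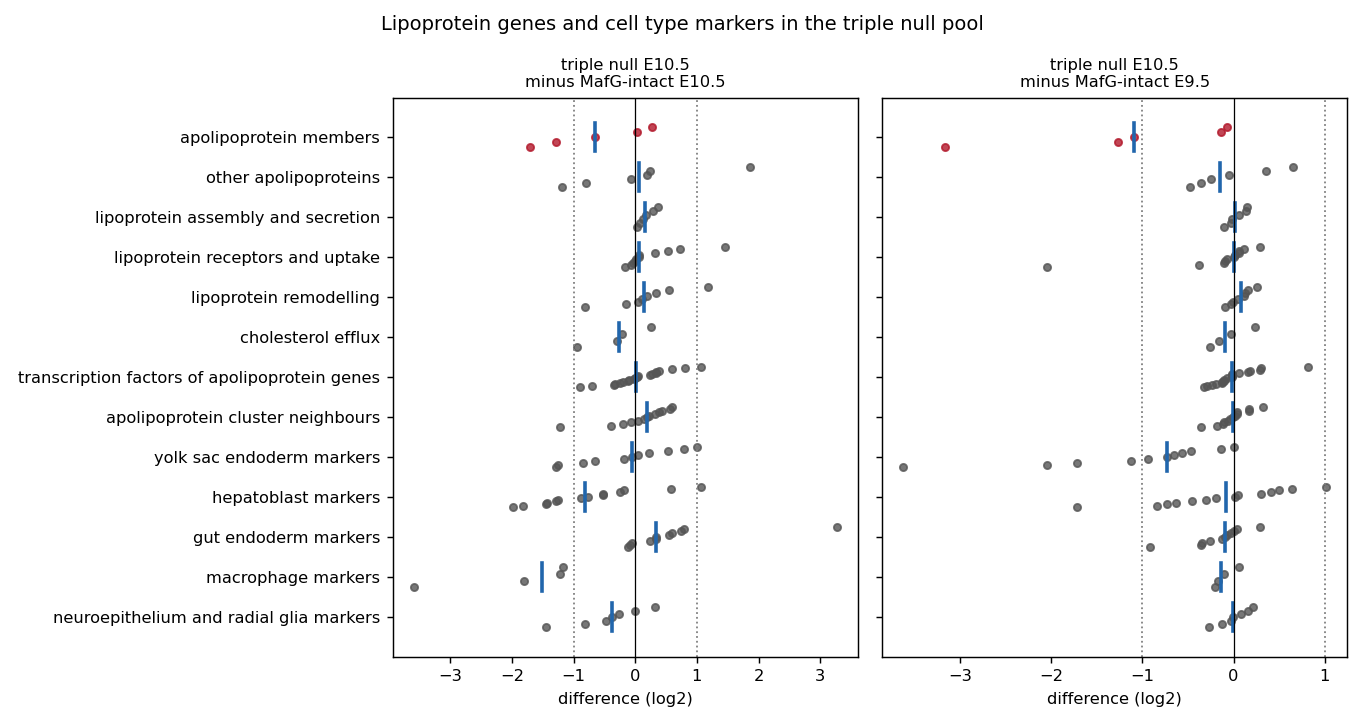
Differences of the members (red) and of the lists of lipoprotein genes and cell type markers (grey) in the triple null pool, against the MafG-intact E10.5 pool and against the MafG-intact E9.5 pool, in log2. Each point is 1 gene above background on both arrays, blue bars are list medians and dotted lines mark 2-fold; bounds are not drawn. Hepatoblast and macrophage markers lie low in the left panel, and yolk sac endoderm markers lie low in the right panel, as do the members, at a median of -1.09.

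Markers of the cell types known to use these genes also differed between the pools. Of 15 yolk sac endoderm markers 13 were measured, and 5 of 13 were at least 2-fold lower at E10.5 than at E9.5 in the MafG-intact pools (median -0.76). Between the triple null and E9.5 pools 4 of 11 were lower (median -0.73), with 1 more by its bound. Between the E10.5 pools 1 was higher (Vil1, at 1.01) and 2 lower (Ttr, at -1.28, and Afp, at -1.26) of 11 (median -0.06). Ttr and Afp are also on the hepatoblast list below and are counted in both. Between the E10.5 pools 5 of the 11 lay above 0 and 6 below. Spp2, which was chosen above as like Apoa1, was at -0.84, -2.78 and -3.62 in the 3 comparisons. Apoa1 was at -1.28, -1.89 and -3.17. The summed signal of the list, in units of the array's 75th percentile, was 12.8 in the triple null pool, 24.4 in the MafG-intact E10.5 pool and 22.7 at E9.5, and without Afp, which liver also makes, it was 4.65, 4.96 and 9.12. Rbp4, at log2 levels of 1.65, 1.83 and 2.59 in the same order, was the brightest gene left. The sum without Afp thus follows Rbp4 more than the rest of the list. Muc13 and Slc2a2 were not above background in the triple null pool. The labels call the tissue whole embryo and do not say which membranes were kept; the part of yolk sac cells in the levels of Apoa1 and Apoa4 was not tested.

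Of 16 hepatoblast markers 15 were measured. Between the E10.5 pools the triple null pool was at least 2-fold below in 6 of 14 and above in 1 (median -0.82), with Fga below by its bound. Between the MafG-intact pools 5 of 15 were higher at E10.5 and none lower (median 0.59), and between the triple null and E9.5 pools 1 of 14 was higher and 1 lower (median -0.09). Alb, the serum albumin gene that marks hepatoblasts, was at -1.98, 2.99 and 1.02. F2, prothrombin, named after its values were seen, was at -1.83, 1.20 and -0.63, beside -1.71, 0.62 and -1.09 for Apoa2. Foxa3 was the marker at least 2-fold above its stage match, at 1.07. Between the triple null and E9.5 pools 7 of 14 markers lay above 0 and 7 below. The summed signal was 21.3, 37.1 and 26.0, without Afp 13.1, 17.7 and 12.4, and without Afp and the bright Dlk1 3.54, 6.78 and 2.97. The part of liver cells in the level of Apoa2 was not tested.

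Other cell types also moved between the pools. All 4 macrophage markers on both E10.5 arrays lay at least 2-fold below the stage match in the triple null pool, with 5 more by bounds of at least 2-fold, which 24.3% of 556 genes above background on 1 of these arrays also had. Their summed signal was 0.33 there, 1.26 in the MafG-intact E10.5 pool and 0.34 at E9.5. Of 11 gut endoderm markers only Cdx2, a homeobox factor of the hindgut and tail, passed the threshold, at 3.27 between the E10.5 pools and -2.98 between the MafG-intact pools. The list as a whole also moved by smaller amounts. Between the E10.5 pools 8 of 11 lay above 0 (median 0.34, all genes 0.06). Between the MafG-intact pools 11 of 11 lay below 0 (median -0.54, all genes -0.05). Between the triple null and E9.5 pools the median was -0.09. The neuroepithelium and radial glia markers were above background on all arrays, 7 of 7, and Fabp7 alone passed the threshold, at -1.44 between the E10.5 pools and 1.53 between the MafG-intact pools. Their medians in these comparisons were -0.37, with 6 of 7 below 0, and 0.58, with 5 of 7 above 0. The part of these cells in the members' values was not tested.

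**Figure D4:**
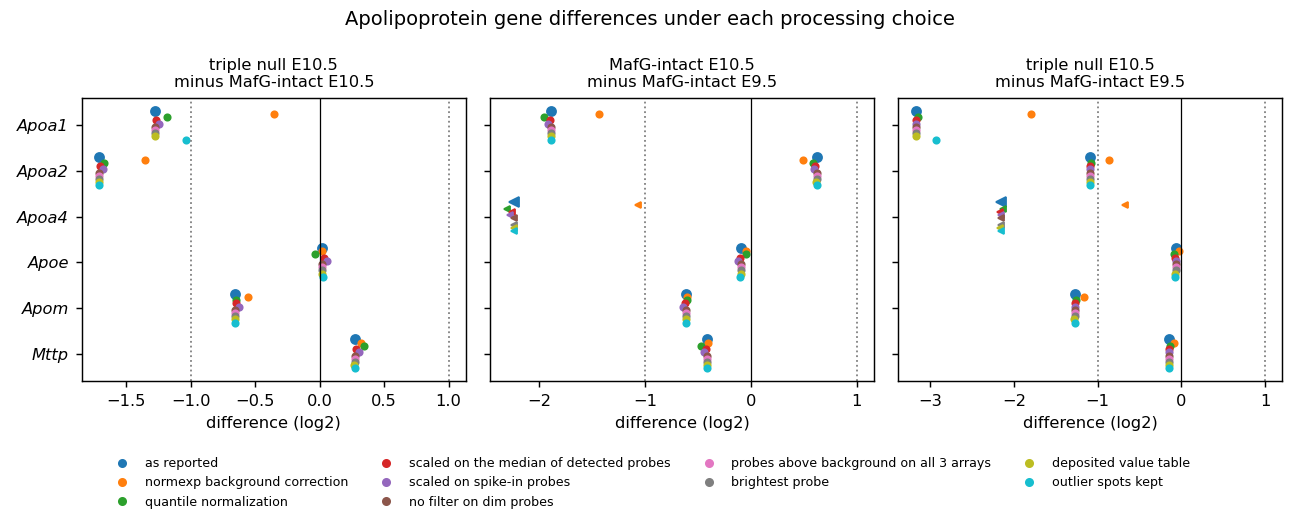
Differences of the members in each pair of arrays under each way of processing the signal, in log2. Large blue symbols are the values reported, small ones the alternatives, triangles are bounds and dotted lines mark 2-fold. Normexp (orange) moves Apoa1, Apoa2 and Apoa4 toward 0, with Apoa1 at -0.35 in the left panel, and Apoa1 stays past the threshold in the other panels, at -1.44 and -1.79.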

How the data were processed

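Total RNA of whole embryos was amplified and labelled with Cy3, per the labels. The values the authors deposited are background-subtracted spot intensity, not log-transformed, per the file headers, which name the array design 014868 (build mm7), the protocol GE1-v5_95_Feb07 and the software Agilent Feature Extraction, version 9.5.3.1. The deposited value table holds the same intensity, rounded (medians 84, 115 and 83.4).

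From these, log2 intensity minus the 75th percentile of each array was computed for 43379 non-control spots of 45018, without outlier spots. Spots of a probe were averaged. Of 41174 probes, 22950 had 1 gene symbol through the accession in a RefSeq table of GRCm38.p6, and those of a gene were averaged where any array read them above background. A probe was above background where a share of more than 0.5 of its spots were. Coordinates come from the RefSeq promoter table alone.

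The members and lists were chosen with earlier results of these data known. All members are named, and from other lists the genes at least 2-fold apart or the 2 farthest apart, some of which are not reported here; Apoc1, Hnf4a, Sik3, Zpr1, Fcer1g and F2 were named after their values were seen. Alternatives were normexp (offset 50), quantile normalization, other scalings, filters, probes, thresholds and the value table. The steps were tested on simulated data in which the changed genes were brighter at E9.5 than Apoa4 and changed by more than 2-fold. That test did not cover dimmer genes or differences near 2-fold. Python 3.11.15, pandas 2.3.3, numpy 2.4.6, matplotlib 3.10.9, R 4.3.3 and limma 3.58.1 were used.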

Additional observations from a re-analysis of the deposited data

How the results depend on the processing

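Of 151 member differences and bounds under 9 alternatives to the signal or probes used, 147 kept their direction and their side of 2-fold, 3 fell under it, and Apoe between the E10.5 pools changed sign (0.02 to -0.04 with quantile normalization). The falls under 2-fold came with normexp, which adds 50 units to each signal: Apoa1 between the E10.5 pools (-0.35), Apoa2 between the triple null and E9.5 pools (-0.86) and the Apoa4 bound there (-0.67). With normexp 0 of 5 members lay 2-fold below both MafG-intact pools, 1 member was past 2-fold between the E10.5 pools, with a median of -0.35, and 2 of 5 between the triple null and E9.5 pools, with a median of -0.86; over all genes the counts were 267 against 683, 255 against 650 and 27 against 98. At 3-fold 1 member was past the threshold between the E10.5 pools and 1 between the triple null and E9.5 pools, and at 1.5-fold 3 were between the MafG-intact pools; over all genes 273, 242 and 28 passed 3-fold and 1734, 1701 and 379 passed 1.5-fold. Over the alternatives Apoa1 lay between -1.28 and -0.35 for the E10.5 pools, between -1.96 and -1.44 for the MafG-intact pools and between -3.17 and -1.79 for triple null minus E9.5, Apoa2 between the E10.5 pools from -1.71 to -1.35 and Apom against E9.5 from -1.28 to -1.17. Keeping outlier spots was an alternative chosen after seeing the data and put Apoa1 at -1.04 between the E10.5 pools. No paired analysis was possible because each group is 1 array. A slide block was not run, since all arrays lie on 1 slide. Normexp used the median spot signal, the one in the tables used here. Signal near background limits Apoa4 and Apoa1 in the triple null pool, and 4 of the 6 measured members rest on 1 spot.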
